A study of Mus musculus with 12 samples.

Results

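The histones and chromatin regulators on a testis array were taken as 1 gene set. A gene entered by its symbol: linker histones (H1f), core histones and their variants (H2a, H2b, H3c, H3f, H4c), high mobility group proteins (Hmga, Hmgb, Hmgn), and the Hdac, Kdm, Kmt, Brd, Cbx, Chd, Smarc and Ing families. The set held 74 of the 9930 named genes on the array, read by 105 probes. It comprised 5 linker histones, 16 core histones, 5 Hmg genes, 9 Hdac, 7 Kdm, 5 Kmt, 5 Brd, 4 Cbx, 6 Chd, 10 Smarc and 2 Ing genes. Of these, 70 were measured on 3 or more of the 4 arrays in every comparison and were tested. H1f6, the linker histone of the testis, is described apart.

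RNA pools from the testis of 3 males each were compared in pairs on 12 arrays that read 2 dyes, Cy5 and Cy3. The pools came from Wobbler mice with a modifier (wr/mod in the design text), Wobbler mice (wr/wr) and wildtype mice, and all were on a Castaneus background. Wobbler is a recessive mutation of Vps54, a subunit of a complex that tethers vesicles returning to the Golgi. Homozygous males are infertile. The sources used here give neither the ages nor what the modifier is. Each pair of genotypes was hybridised on 4 arrays, 2 of them with the dyes exchanged. The comparisons ask how the modifier and Wobbler testes differ from wildtype testes and from each other.

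Values are log2 ratios of the first-named genotype over the second, so -1 means a level 2-fold lower in the first. That a negative value means lower in the first-named genotype rests on the array titles and the usual order of the dyes. It is therefore only likely. The labels do not say that the arrays of a comparison used separate pools, so a p-value here rests on the spread from array to array, and that spread may be technical. There was no probe for Vps54. No levels are available, only ratios, so the tissue could not be checked by the abundance of its markers. Arrays held 18325 to 19584 usable spots, with SDs of 0.62 to 1.61. The widest was replicate 2 of Wobbler over wildtype. In whole testis, fewer cells of a type and less RNA per cell cannot be told apart.

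Core histones form the spool on which DNA is wound, and linker histones close each turn. Acetylases, deacetylases, methylases and demethylases add or remove marks on histone tails, bromodomain, chromodomain and PHD finger proteins read them, and remodelling enzymes move the spools. In the male germ line much of this machinery is exchanged. Spermatocytes and spermatids use linker and core histones of their own, and late spermatids then replace most histones by transition proteins and finally by protamines.

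Of the 70 tested genes, 1 passed an adjusted p of 0.05 when Wobbler testis was set against wildtype, 1 when modifier testis was set against wildtype, and 0 when modifier testis was set against Wobbler. The p came from limma with Benjamini-Hochberg adjustment over all 14729 features tested. Over all features, 0.306%, 0.733% and 0.414% passed in the 3 comparisons in that order. The member that passed in Wobbler over wildtype was the spermatocyte linker histone H1f6, lower in Wobbler testis, beside 0.183% of all features called lower. The member that passed in modifier over wildtype was the spermatid linker histone H1f7, lower with the modifier, beside 0.699% of all features called lower. No member was called higher with the modifier, where 0.0339% of all features were. At an unadjusted p under 0.05, 13 members (18.6%, against 15.7% of all features) passed in Wobbler over wildtype. Of these, 9 were lower and 4 higher, where 8.47% of all features were lower and 7.22% higher. For modifier over wildtype 10 members (14.3%, against 7.33%) passed, 8 of them lower and 2 higher, where 5.22% of all features were lower and 2.11% higher. For modifier over Wobbler 11 members (15.7%, against 11.5%) passed, 7 of them lower and 4 higher, where 4.47% of all features were lower and 7.03% higher.

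The set as a whole had a median log2 ratio of 0.004 in Wobbler over wildtype, where all features had -0.007. The medians of modifier over wildtype were -0.005 for the set and 0.012 for all features, and those of modifier over Wobbler 0.075 and 0.078. The set's median thus lay within 0.02 of that of all features in each comparison. A value of the same sign on all 4 arrays was found for 11 of 66 members in Wobbler over wildtype (16.7%, against 16.8% of all features). Of these, 8 were negative and 3 positive, where 10.8% of all features were negative and 6.03% positive. It was found for 20 of 69 in modifier over wildtype (29.0%, against 19.1%). There 13 were negative and 7 positive, where 10.4% of all features were negative and 8.69% positive. For modifier over Wobbler it was found for 15 of 68 (22.1%, against 17.4%). There 5 were negative and 10 positive, where 6.13% of all features were negative and 11.2% positive.

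**Figure D1:**
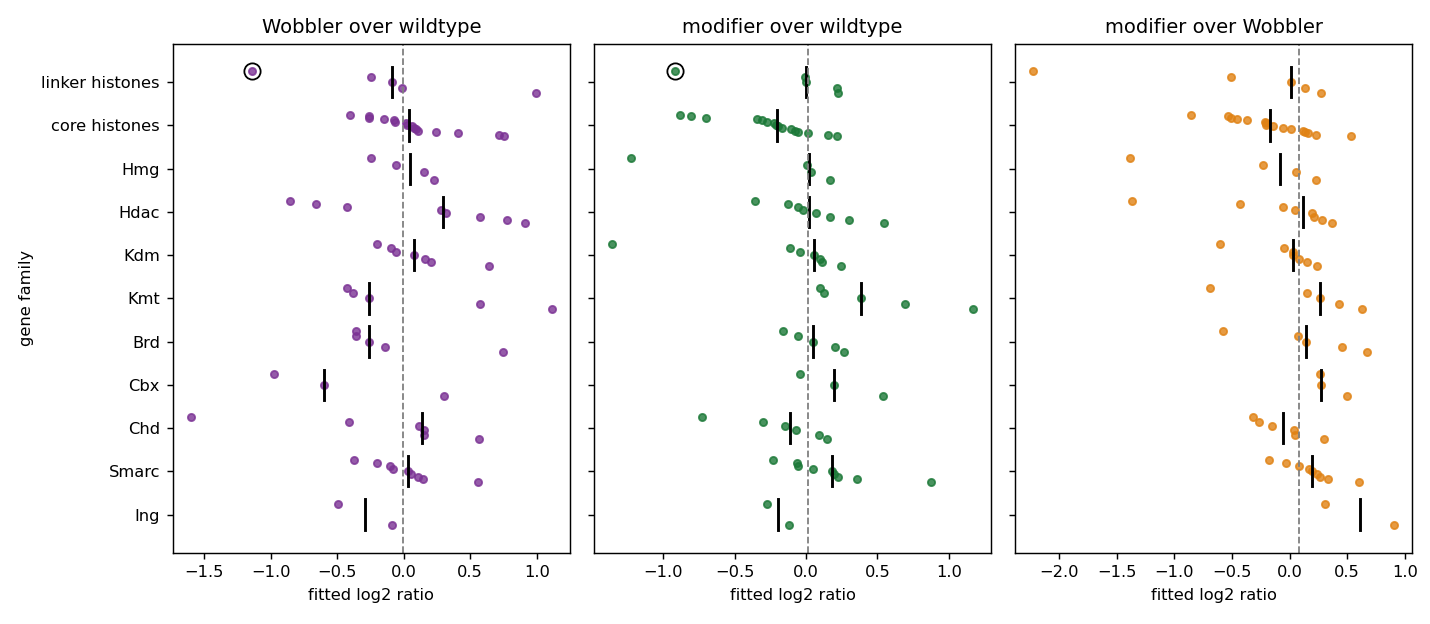
Fitted log2 ratio (horizontal axis) of each of the 70 tested genes, by family (vertical axis), in the 3 comparisons. Each point is a gene, a black bar the family median, the dashed line the median of all features, and a ring an adjusted p under 0.05. Rings mark H1f6 in Wobbler over wildtype and H1f7 in modifier over wildtype, and 13 of 16 core histones lie below 0 in modifier over wildtype.

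H1f6, known as H1t, is the linker histone that appears in pachytene spermatocytes and lasts into round spermatids. Its log2 ratios in Wobbler over wildtype were -1.05, -1.10, -1.62 and -0.80 on arrays 1 to 4. All 4 arrays were well below 0, in both dye orders. The fitted ratio was -1.14 ± 0.13 (SE, n = 4 arrays), a level 2.21-fold lower in Wobbler testis, with an adjusted p of 0.00456 by limma. It ranked 16 by p among all features of that comparison. Its 4 values in modifier over wildtype were 0.16, 0.01, -0.11 and -0.07, with a fitted ratio of -0.004 ± 0.13 (SE, n = 4) and an adjusted p of 1 by limma. Those in modifier over Wobbler were 0.15, 0.34, 0.12 and -0.07, with a fitted ratio of 0.13 ± 0.13 (SE, n = 4) and an adjusted p of 0.767 by limma. These 8 arrays therefore lay around 0, and none came near the values of Wobbler over wildtype.

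The 3 comparisons form a loop, so each ratio can also be had from the other pair of comparisons, which used other arrays. For H1f6 in Wobbler over wildtype the direct ratio was -1.14 and the indirect one -0.14. The gap was -1.0 ± 0.23 (SE) with an unadjusted limma p of 0.00122 and an adjusted p of 0.438 over all features. This gap was examined after the values had been seen. At an unadjusted p under 0.05, 4 of 70 members and 1024 of 14729 features had such a gap, and after adjustment 0 members and 4 features. The lower level of H1f6 was thus measured on the arrays that set Wobbler directly against wildtype and did not appear at that size along the other path. A fit that forces the loop to close gave -0.81 with an adjusted p of 0.429 by limma. The 4 arrays fitted alone gave -1.14 with an adjusted p of 0.804 by limma. Under both of these fits 0 of 14729 features were called in Wobbler over wildtype.

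H1f7, also called H1T2, is a linker histone of spermatids that sits at the apical side of the nucleus and is needed for its condensation. Its log2 ratios in modifier over wildtype were -0.77, -0.55, -1.51 and -0.85. All 4 arrays were below 0, array 3 the farthest. The fitted ratio was -0.92 ± 0.15 (SE, n = 4), a level 1.89-fold lower with the modifier, with an adjusted p of 0.0247 by limma. The indirect ratio along the loop was -0.60, and the gap had an unadjusted limma p of 0.258. In modifier over Wobbler all 4 arrays were again negative, at -0.47, -0.44, -0.84 and -0.30, but the fitted ratio of -0.51 ± 0.15 (SE, n = 4) had an adjusted p of 0.235 by limma. In Wobbler over wildtype the values straddled 0, at 0.46, 0.08, -0.56 and -0.33, with a fitted ratio of -0.09 ± 0.15 (SE, n = 4) and an adjusted p of 0.804 by limma. The call in modifier over wildtype was lost without any single array of that comparison (adjusted p of 0.209, 0.136, 0.191 and 0.0583 without arrays 1 to 4) and without array 4 of Wobbler over wildtype (0.0504).

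The other 3 linker histones did not pass the adjusted threshold. H1f2, a linker histone of dividing body cells, had fitted ratios of -0.01 for Wobbler over wildtype, -0.005 for modifier over wildtype and 0.27 for modifier over Wobbler. H1f8, the linker histone of the oocyte, had 4.03 on array 2 of Wobbler over wildtype and between -0.12 and 0.14 on the other arrays, with a fitted ratio of 1.0. H1f10, a replication-independent linker histone of body cells, had -2.23 ± 0.76 (SE) in modifier over Wobbler from 3 arrays, at -0.48, -4.80 and -1.48, with an adjusted limma p of 0.325.

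**Figure D2:**
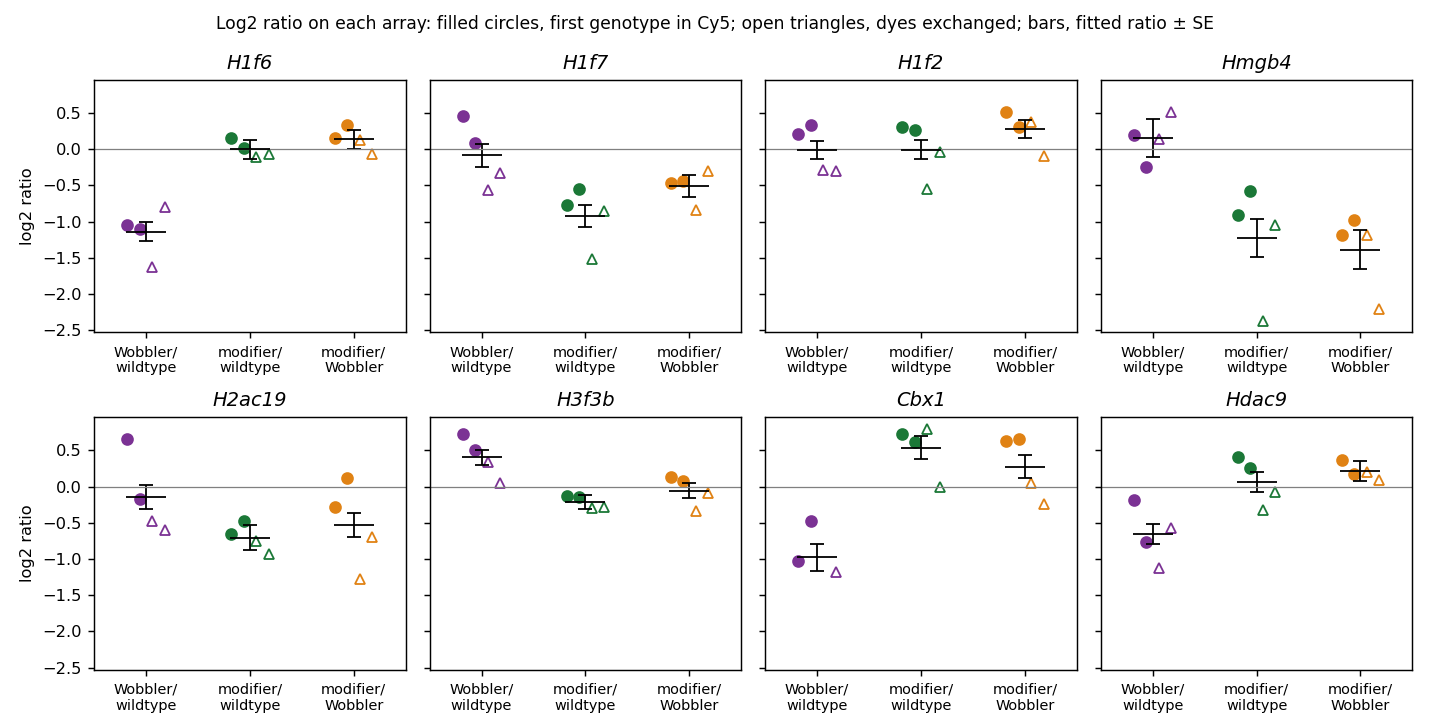
Log2 ratio (vertical axis) on each of the 4 arrays of the 3 comparisons (horizontal axis) for 8 genes. Filled circles are arrays with the first-named genotype in Cy5, open triangles those with the dyes exchanged, and bars the fitted ratio with its SE. H1f6 lies between -1.62 and -0.80 in Wobbler over wildtype and between -0.11 and 0.34 elsewhere, while H1f7 and Hmgb4 lie below 0 on all 8 arrays with the modifier.

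The windows upstream of 4 genes are shown. H1f6 and H1f7 are the members that passed the threshold, H1f2 is a somatic linker histone of the same chromosome as H1f6, and Hmgb4, an HMG-box gene of spermatids, is the member with the lowest p in modifier over Wobbler. Each window is the 250 bases before the start of the gene, on the gene's strand, from RefSeq on build GRCm38.p6. Capitals mark matches to AAACACA, known as the H1 box, to the CCAAT box, to the TATA motif searched as TATANA with N as any base, to the GC box searched as GGGCGG, and to TGACG, which lies inside the cyclic AMP response element TGACGTCA. Both strands were searched, and overlapping matches run together. The windows are chr13:23695561-23695810 (plus strand) for H1f6, chr13:23738557-23738806 (plus strand) for H1f2, chr15:98257308-98257557 (minus strand) for H1f7 and chr4:128260896-128261145 (minus strand) for Hmgb4.
H1f6: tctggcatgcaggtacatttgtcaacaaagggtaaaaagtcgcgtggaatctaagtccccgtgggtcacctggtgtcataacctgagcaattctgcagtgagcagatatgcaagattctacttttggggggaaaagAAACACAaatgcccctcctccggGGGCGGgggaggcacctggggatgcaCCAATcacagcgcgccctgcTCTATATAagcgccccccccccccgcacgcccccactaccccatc
H1f2: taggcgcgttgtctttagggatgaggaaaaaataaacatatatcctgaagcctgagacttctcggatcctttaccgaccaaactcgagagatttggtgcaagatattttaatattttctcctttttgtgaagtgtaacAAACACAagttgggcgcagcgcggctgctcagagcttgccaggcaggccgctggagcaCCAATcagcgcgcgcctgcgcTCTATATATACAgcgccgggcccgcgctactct
H1f7: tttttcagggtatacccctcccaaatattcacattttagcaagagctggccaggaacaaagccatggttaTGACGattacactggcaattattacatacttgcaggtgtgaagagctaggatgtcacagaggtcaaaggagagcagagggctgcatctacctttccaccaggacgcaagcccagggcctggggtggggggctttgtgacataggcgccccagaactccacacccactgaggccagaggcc
Hmgb4: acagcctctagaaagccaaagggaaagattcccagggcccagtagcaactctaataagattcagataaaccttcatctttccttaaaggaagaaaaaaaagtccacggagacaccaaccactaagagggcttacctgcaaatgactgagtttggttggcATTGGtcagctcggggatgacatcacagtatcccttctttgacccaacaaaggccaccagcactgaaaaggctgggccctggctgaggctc

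In the H1f6 window the H1 box began 114 bases before the start, the GC box 91, the CCAAT box 65 and TATATA 43. In the H1f2 window the H1 box began 112 bases before the start, CCAAT 54 and the first TATATA 31, with no GC box. The somatic and the testis linker histone thus shared 3 of these motifs in the same order. H1f7 held only TGACG, 180 bases before the start, and Hmgb4 only CCAAT on the other strand, read as ATTGG, 91 bases before the start. Of 32851 promoter windows of this length, the H1 box was in 6.25%, CCAAT in 33.8%, the TATA motif in 22.6%, the GC box in 32.7%, TGACG in 17.8% and the whole response element in 1.55%. Among the 73 windows found for 60 members, the H1 box was in 7, CCAAT in 40, the TATA motif in 12, the GC box in 53, TGACG in 21 and the whole response element in 2. A match describes the letters of the window only.

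Of the 16 core histones 0 passed the adjusted threshold of limma in any comparison, and 3, 5 and 3 had an unadjusted p under 0.05 in Wobbler over wildtype (18.8%, against 15.7% of all features), modifier over wildtype (31.2%, against 7.33%) and modifier over Wobbler (18.8%, against 11.5%). With the modifier over wildtype, 13 of 16 had a fitted ratio below 0, against 6997 of all 14729 features, and the family median was -0.21. On all 4 arrays 8 of 16 were negative, beside 10.4% of all features. The 5 with an unadjusted p under 0.05 were all lower, where 5.22% of all features were. For modifier over Wobbler 10 of 16 were below 0 (5656 of all features) with a median of -0.17, and for Wobbler over wildtype 6 of 16 (7485 of all features) with a median of 0.04. In modifier over Wobbler the core histone median was 0.17 and 0.20 on the arrays with the modifier in Cy5. With the dyes exchanged it was -0.18 and -0.41, so its sign followed the dye order. The medians of all features on these 4 arrays were 0.16, 0.19, -0.07 and -0.03.

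H2ac19, a replication-dependent H2A, had log2 ratios of -0.66, -0.47, -0.75 and -0.93 in modifier over wildtype. All 4 arrays were negative and close together, but the fitted -0.70 ± 0.17 (SE, n = 4) had an adjusted p of 0.129 by limma. Against Wobbler testis it had -0.53 with the modifier, from arrays between -1.27 and 0.12, and in Wobbler over wildtype -0.15. Replication-dependent histone genes are near-identical copies, so cDNA of other copies may bind to the probes of H2ac19, H2bc22, H2bu2, H3c1, H3c15, H4c1, H4c8 and H4c9, and their values are uncertain as to the gene. H4c9 was positive on all 4 arrays of modifier over Wobbler, at 0.89, 0.52, 0.30 and 0.40 (fitted 0.53 ± 0.13, SE, adjusted limma p of 0.136), and 0.22 in modifier over wildtype. H4c1 in turn had -0.37 in modifier over Wobbler, from arrays at 0.85, -0.21, -1.05 and -1.06, and -0.11 in modifier over wildtype. Its 2 probes gave -0.85 and 0.11 in modifier over Wobbler. H3c1 had 0.75 in Wobbler over wildtype, where array 1 stood at 2.60 and the others between 0.07 and 0.25.

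The lowest fitted ratios of a core histone in modifier over wildtype belonged to H2ap and H2bl1. H2ap, an H2A-like gene of the X chromosome, had -0.91, -0.98, -1.23 and -0.42 in modifier over wildtype, and for modifier over Wobbler -0.55, -0.61, -0.82 and -1.45. All 8 arrays were negative. The fitted ratios of -0.89 ± 0.32 and -0.86 ± 0.32 (SE, n = 4 each) had adjusted limma p-values of 0.448 and 0.345, and in Wobbler over wildtype the ratio was 0.72. That last value rested on array 2, at 2.45, beside 0.62, -0.33 and 0.13 on the others. The indirect ratio of H2ap in modifier over wildtype was -0.14, against the direct -0.89. H2bl1, an H2B-like histone, had -0.92, -1.01, -0.34 and -0.97 in modifier over wildtype (fitted -0.81 ± 0.27, SE, adjusted limma p of 0.378). It had -0.20 in modifier over Wobbler, from arrays at 0.55, 0.50, -0.78 and -1.07, and -0.40 in Wobbler over wildtype. H2al2a, the spermatid H2A-like histone that works with the transition proteins, had fitted ratios of -0.31 for modifier over wildtype, -0.46 for modifier over Wobbler and -0.26 for Wobbler over wildtype. Its arrays lay between -0.76 and 0.04 in both modifier comparisons.

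Among the variants used outside replication, H3f3b had the smallest p of the core histones in Wobbler over wildtype. H3f3b and H3f3a both encode H3.3, which is laid down at active genes and on the silenced sex chromosomes of spermatocytes. H3f3b had 0.73, 0.51, 0.34 and 0.05 in Wobbler over wildtype, all positive, with a fitted 0.41 ± 0.10 (SE, n = 4) and an adjusted limma p of 0.136. Over wildtype with the modifier, H3f3b had -0.13, -0.14, -0.30 and -0.28, all negative, with a fitted ratio of -0.21. In modifier over Wobbler it had -0.06. Its indirect ratio of Wobbler over wildtype was -0.16, against the direct 0.41. That gap was 0.56 ± 0.18 (SE), with an unadjusted limma p of 0.0102 and an adjusted p of 0.62. H3f3a had -0.08 for Wobbler over wildtype, -0.23 for modifier over wildtype and 0.16 for modifier over Wobbler. H2ax, which is phosphorylated at DNA breaks and over the sex body of meiosis, had -0.28 in modifier over wildtype, and H2az1, the variant of gene starts, had 0.01. In Wobbler over wildtype the fitted ratios were 0.08 for H2ax and 0.02 for H2az1.

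**Figure D3:**
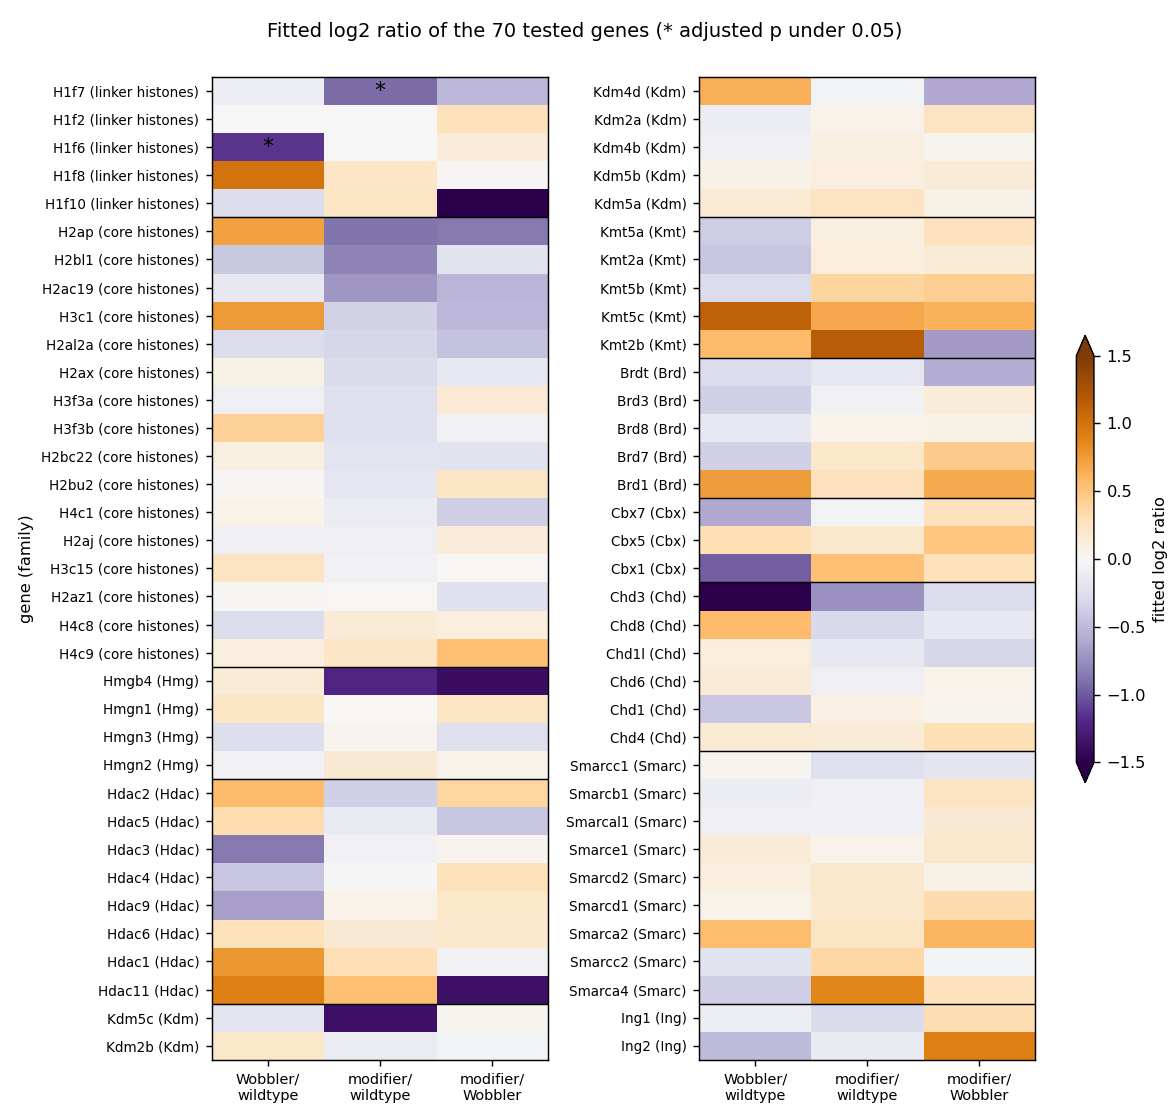
Fitted log2 ratio (colour, from -1.5 in violet to 1.5 in orange, values beyond drawn at the ends) of the 70 tested genes (rows, grouped by family) in the 3 comparisons (columns). Stars mark an adjusted p under 0.05 and stand only at H1f6 in Wobbler over wildtype and H1f7 in modifier over wildtype.

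Among the high mobility group proteins, which bend DNA or loosen nucleosomes, Hmgb4 had the lowest values in both comparisons with the modifier. Hmgb4 is an HMG-box protein of spermatids. Its ratios were -0.91, -0.58, -2.37 and -1.04 in modifier over wildtype, and for modifier over Wobbler -1.18, -0.98, -1.19 and -2.20. All 8 arrays were negative, between -2.37 and -0.58. In Wobbler over wildtype the arrays lay around 0, at 0.19, -0.24, 0.14 and 0.51. The fitted ratios were -1.22 ± 0.27 (SE, n = 4, adjusted p of 0.0893 by limma) for modifier over wildtype and -1.39 ± 0.27 (SE, n = 4, adjusted p of 0.063 by limma) for modifier over Wobbler, and 0.15 in Wobbler over wildtype. Its 2 probes gave -1.0 and -1.45 for modifier over wildtype, and -0.99 and -1.79 for modifier over Wobbler. The indirect ratios of Hmgb4 were -1.24 for modifier over wildtype and -1.38 for modifier over Wobbler. Of the nucleosome-binding Hmgn genes, Hmgn1 had 0.23, 0.01 and 0.23 in Wobbler over wildtype, modifier over wildtype and modifier over Wobbler, and Hmgn2 and Hmgn3 lay between -0.25 and 0.17 throughout.

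**Figure D4:**
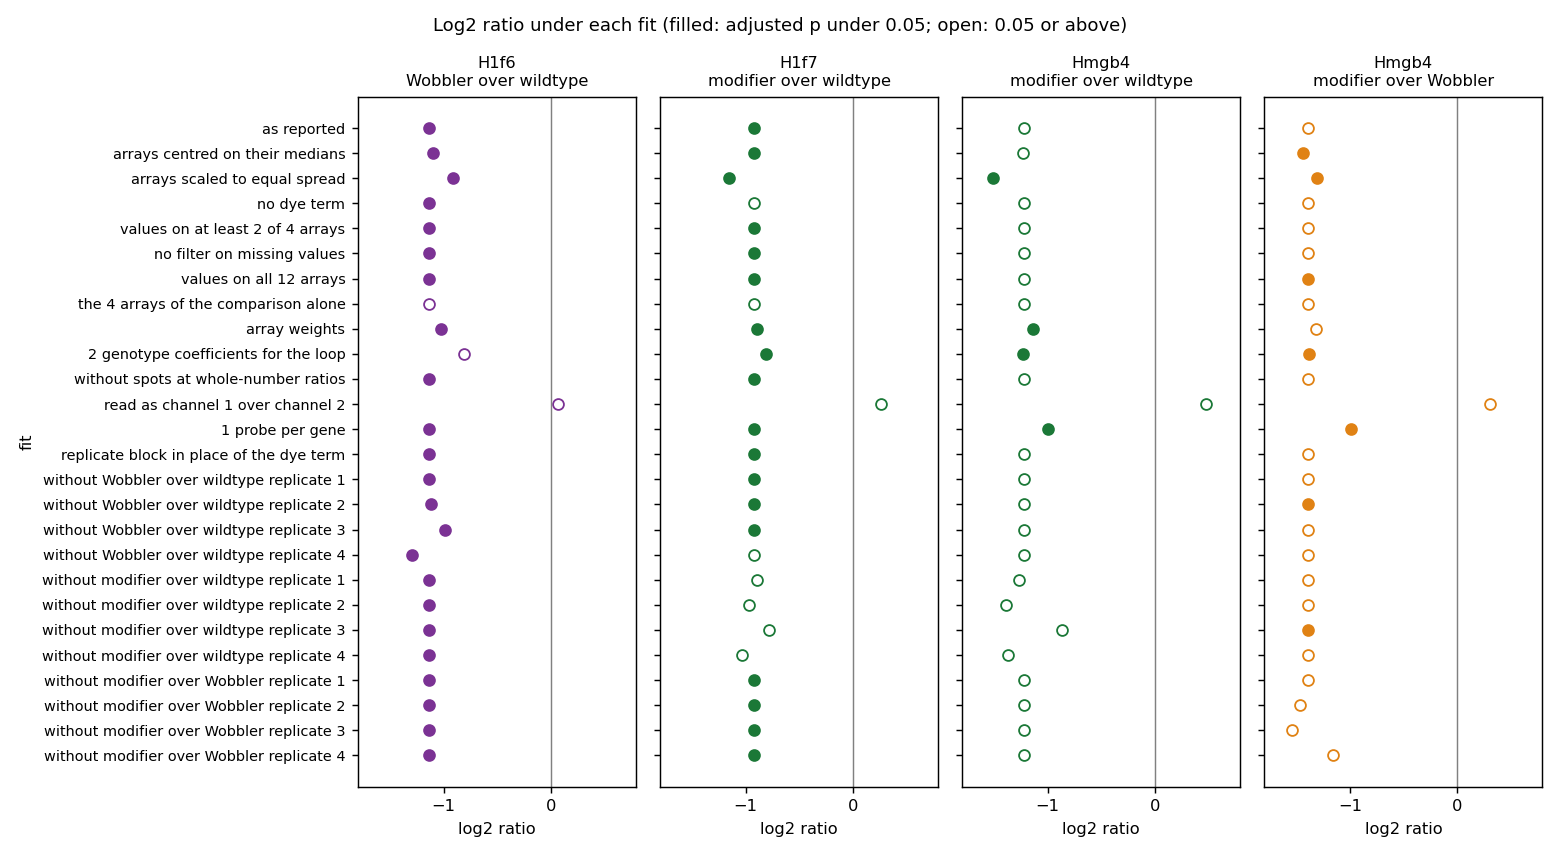
Log2 ratio (horizontal axis) of H1f6, H1f7 and Hmgb4 under each way of fitting the arrays (vertical axis). Filled points have an adjusted p under 0.05 and open points do not. All ratios stay below 0 except under the reading of values as channel 1 over channel 2, where H1f6 has 0.07, H1f7 0.26 and Hmgb4 0.48 (modifier over wildtype) and 0.31 (modifier over Wobbler).

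Histone deacetylases, which remove acetyl marks, had 8 tested members and 0 called. At an unadjusted limma p under 0.05, 2 passed in Wobbler over wildtype (25%, against 15.7% of all features). In modifier over wildtype 0 passed (against 7.33%), and in modifier over Wobbler 1 (12.5%, against 11.5%). The lowest p belonged to Hdac9, a class IIa deacetylase, with -0.18, -0.76, -1.13 and -0.57 in Wobbler over wildtype. All 4 arrays were negative, and the fitted -0.66 ± 0.14 (SE, n = 4) had an adjusted p of 0.0998 by limma. Hdac9 had 0.07 in modifier over wildtype and 0.21 for modifier over Wobbler. The class I enzymes Hdac1, Hdac2 and Hdac3 had 0.78, 0.57 and -0.86 in Wobbler over wildtype. The Hdac1 and Hdac3 values rested on array 2, at 4.35 for Hdac1 (others between -0.80 and -0.04) and at -2.85 for Hdac3 (others 0.27, -0.34 and -0.49). Without that array Hdac3 had -0.15. Hdac2 was at 1.51 and 1.01 on the arrays with Wobbler in Cy5 and at -0.28 and 0.06 with the dyes exchanged. With the modifier over wildtype they had 0.30, -0.36 and -0.06, where Hdac2 stood at -1.46 on array 1 and between -0.12 and 0.15 on the others. Hdac6, the tubulin deacetylase of the cytoplasm, had 0.28, 0.17 and 0.19 in Wobbler over wildtype, modifier over wildtype and modifier over Wobbler. Hdac5 had 0.32 in Wobbler over wildtype, where its 3 probes disagreed, at 1.62, 0.13 and -0.79. In modifier over Wobbler it had -0.43, negative on all 4 arrays, from probes at -0.07, -0.49 and -0.72.

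The histone demethylases and methylases had 7 and 5 tested members, with 0 called. In either family, no more than 1 had an unadjusted limma p under 0.05 in any comparison. Of all features, 15.7%, 7.33% and 11.5% had such a p in Wobbler over wildtype, modifier over wildtype and modifier over Wobbler. Kdm5c, an X-linked demethylase of H3K4, had -2.08, -0.95, -1.83 and -0.58 in modifier over wildtype. The 4 arrays were negative but far apart, and the fitted -1.36 ± 0.53 (SE, n = 4) had an adjusted p of 0.539 by limma. The indirect ratio of Kdm5c in modifier over wildtype was -0.17. Kdm4d, an H3K9 demethylase of the testis, had -0.60 in modifier over Wobbler and 0.64 in Wobbler over wildtype. Its sign in modifier over Wobbler followed the dye order, at 0.42 and 0.42 with the modifier in Cy5 and -1.74 and -1.52 with the dyes exchanged. Kdm5b lay between 0.08 and 0.15 in all 3 comparisons. All 5 Kmt genes had a fitted ratio above 0 in modifier over wildtype, between 0.09 and 1.17 with a median of 0.38, against 7732 of 14729 features. The highest was Kmt2b, which methylates H3K4, at 1.36, 0.86 and 0.89 on the 3 arrays with a value (adjusted limma p of 0.783). Its indirect ratio in that comparison was -0.12. Kmt5a, which places a single methyl group on H4K20, had -0.38 in Wobbler over wildtype and 0.27 in modifier over Wobbler.

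Readers of histone marks, the 5 Brd, 3 Cbx and 2 Ing genes tested, had 0 called. At an unadjusted limma p under 0.05, 2 Cbx (66.7%) and 1 Brd (20%) passed in Wobbler over wildtype, against 15.7% of all features. In modifier over wildtype 1 Cbx (33.3%) and 0 Brd passed, against 7.33%. In modifier over Wobbler 2 Brd (40%) and 0 Cbx passed, against 11.5%. The Ing genes had 0 in every comparison. Cbx1, heterochromatin protein 1 beta, had -1.03, -0.48 and -1.18 on the 3 arrays with a value in Wobbler over wildtype. These were all negative, with a fitted -0.97 ± 0.19 (SE, n = 3) and an adjusted p of 0.0912 by limma. With the modifier over wildtype, 3 of its 4 arrays lay between 0.62 and 0.80 and array 4 at -0.01, with a fitted 0.54 ± 0.16 (SE, n = 4) and an adjusted p of 0.279 by limma. Its direct and indirect ratios of Wobbler over wildtype differed by -1.24 (adjusted limma p of 0.473). The indirect ratio of modifier over wildtype was -0.70, against the direct 0.54. Cbx5, heterochromatin protein 1 alpha, had 0.30, 0.20 and 0.50 in Wobbler over wildtype, modifier over wildtype and modifier over Wobbler, with array 2 highest in the first and last, at 1.09 and 1.38. Cbx7, a Polycomb subunit, had -0.60 in Wobbler over wildtype, negative on all 4 arrays (adjusted limma p of 0.211).

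Brdt, the testis bromodomain protein that binds acetylated histones in spermatids, had fitted ratios of -0.26 for Wobbler over wildtype, -0.16 for modifier over wildtype and -0.58 for modifier over Wobbler. All 3 ratios rested mainly on 1 of 3 probes. That probe stood at -0.81 beside 0.07 and 0.03 in Wobbler over wildtype, and at -0.40 beside -0.05 and -0.04 in modifier over wildtype. In modifier over Wobbler it stood at -2.17 beside -0.05 and -0.01, and the fitted ratio there also rested mainly on array 4. Brd7, a subunit of a SWI/SNF complex, had -0.36 in Wobbler over wildtype, negative on all 4 arrays, and 0.45 in modifier over Wobbler, positive on all 4, with adjusted limma p-values of 0.288 and 0.275. Ing1 and Ing2, PHD finger proteins of deacetylase complexes, had -0.08 and -0.49 for Wobbler over wildtype, -0.27 and -0.12 for modifier over wildtype, and 0.31 and 0.91 for modifier over Wobbler. The Ing1 ratio of modifier over wildtype rested on 1 of 3 probes, at -0.99 beside 0.10 and 0.07. Ing2 arrays ranged from -1.97 to 2.07, so the size of its ratios is poorly fixed.

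Remodelling enzymes had 0 called among 6 Chd and 9 Smarc genes tested. At an unadjusted limma p under 0.05 no more than 2 of either family passed in any comparison. Of all features, 15.7%, 7.33% and 11.5% had such a p in Wobbler over wildtype, modifier over wildtype and modifier over Wobbler. Chd3, a motor of the NuRD complex, had -2.06, -2.21 and -0.31 in Wobbler over wildtype, with array 2 missing. The fitted -1.60 ± 0.50 (SE, n = 3) had an adjusted p of 0.202 by limma. Chd4, its close relative, had 0.15, 0.15 and 0.30 in Wobbler over wildtype, modifier over wildtype and modifier over Wobbler, and Chd1l had -0.31 in modifier over Wobbler. Chd1, a remodeller that follows transcription, had -0.41 in Wobbler over wildtype, negative on all 4 arrays (adjusted limma p of 0.223). Smarca4 and Smarca2, the alternative motors of SWI/SNF complexes, had 0.87 and 0.22 in modifier over wildtype, where Smarca4 was positive on all 4 arrays, at 0.44, 0.86, 0.57 and 1.62 (adjusted limma p of 0.605). The indirect ratio of Smarca4 in that comparison was -0.11. Smarca2 had 0.56 in Wobbler over wildtype, from probes at 1.55, 0.01 and 0.11, and 0.61 in modifier over Wobbler. Its indirect ratio of Wobbler over wildtype was -0.38 (gap 0.94 ± 0.37, SE, adjusted limma p of 0.669). Smarcd1, a SWI/SNF subunit, had 0.33 in modifier over Wobbler.

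The 4 genes without a test had values on too few arrays. Cbx2 had 1 value in modifier over wildtype (-0.11). Hdac8 had 1 in modifier over Wobbler (-0.27). Smarca5 had 2 there (0.03 and -2.10), and Hmgb3 had 2 there (-2.24 and -0.01). For the 22 genes with several probes, each probe was averaged over the arrays with a value, without a dye term. A gene's probe means spanned a median of 0.40, 0.41 and 0.50 in Wobbler over wildtype, modifier over wildtype and modifier over Wobbler. They spanned over 1 in 3, 2 and 5 genes.

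Other chromatin genes were taken as 8 lists by function, 133 genes with 85 tested. In Wobbler over wildtype 0 of 85 passed by limma, and 9 had an unadjusted p under 0.05 (10.6%, against 15.7% of all features). With the modifier 4 of 85 passed over wildtype (4.71%, against 0.733% of all features) and 3 over Wobbler (3.53%, against 0.414%), all lower. Those called with the modifier were spermatid nuclear proteins, and all also stand among the late spermatid markers. The transition proteins Tnp1 and Tnp2 had -1.10 and -1.01 in modifier over wildtype (adjusted limma p of 0.0046 and 0.0067), and the protamines Prm1 and Prm2 had -1.15 and -1.60 (0.0098 and 0.00867). Over Wobbler, Tnp1, Tnp2 and Prm1 passed with -1.13, -0.76 and -0.96, and Prm2 had -1.20 with an adjusted limma p of 0.0507. The 12 acetyltransferases, 18 methyltransferases and cofactors, 11 sirtuins and partners of deacetylases, 10 remodelling partners, 12 histone chaperones, 8 Polycomb genes and 6 DNA methylation genes had 0 called by limma in every comparison, with no more than 3 of a list at an unadjusted p under 0.05. Of all features, 15.7%, 7.33% and 11.5% had such a p in Wobbler over wildtype, modifier over wildtype and modifier over Wobbler. Among the genes with the smallest p of their list, Ezh2, the H3K27 methylase, had 1.70 in Wobbler over wildtype (adjusted limma p of 0.136). The chaperone Npm1 had 0.57 there (0.158), and Hat1, which acetylates new H4, had -0.76 (0.174). With the modifier over wildtype, Dpy30, a cofactor of H3K4 methylases, had -0.45 (0.16) and Ep400, a remodelling motor, 0.46 (0.138).

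Markers of late spermatids moved in modifier over wildtype, where H1f7, Hmgb4 and most core histones lay below 0. They also moved in modifier over Wobbler, where H1f7 and Hmgb4 lay below 0 but the core histone median changed sign with the dye order. Of 9 such markers tested, 6 were called lower in modifier over wildtype with a median of -1.10, 5 in modifier over Wobbler with a median of -0.86, and 0 in Wobbler over wildtype with a median of -0.21. Of all features, 0.699%, 0.299% and 0.183% were called lower in these comparisons in that order. All 9 late spermatid markers were negative on all 4 arrays in both comparisons with the modifier. Of 6 meiotic markers, 2 were called lower in modifier over wildtype, where their median was -0.60. In modifier over Wobbler their median was -0.38 with 0 called. Piwil1 and Clgn lay near or above 0 with the modifier, at 0.07 and -0.03 over wildtype and at 0.28 and 0.15 over Wobbler. In Wobbler over wildtype, where H1f6 was lower, the median of the 6 was 0.11 with 0 called. Of 5 Leydig cell markers, 1 was called lower in each modifier comparison, Cyp17a1. All 5 lay below 0 in both, with medians of -0.83 over wildtype and -0.70 over Wobbler, beside -0.02 in Wobbler over wildtype. The 5 spermatogonial and 5 Sertoli markers had 0 called, with medians of 0.02 and -0.12 in modifier over wildtype. Tyrobp, a macrophage marker, was the 1 called of 4 in modifier over wildtype, and 2 blood and 4 epididymis markers had 0 called in any comparison, with medians of -0.16 and -0.19 in modifier over wildtype. Their part in the ratios of the chromatin genes was not tested.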

How the data were processed

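Testis RNA was compared on 12 arrays with 2 dyes. Each spot has 1 log2 ratio per array, deposited by the authors. How it was scanned, corrected and normalized is not given in the sources used here. Base 2 was inferred from recurring ratios of whole numbers. A repeated code above 15, log2 of 100000 above each array's shift, was treated as missing (22 to 165 spots per array). Values were read as Cy5 over Cy3, the reading that closed the loop of comparisons better (correlation 0.178, against 0.0104 for channel 1 over channel 2, over 14975 probes), and dye-exchanged arrays were multiplied by -1. The loop cannot tell Cy5 over Cy3 from Cy3 over Cy5, so the sign rests on the array titles and the usual dye order. The labelling protocol mentions a reference pool that does not match the channel labels, which were followed.

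Of 20355 probes, 14030 had 1 gene symbol, 5 several and 6320 none. Against a gene table of GRCm38.p6, 36 identifiers were missing and 0 symbols changed. Probes of a symbol were averaged per array. Of 16255 features, 14729 had values on at least 3 of 4 arrays of each comparison. They were fitted with limma 3.58.1 (R 4.3.3). The model had a dye term and a mean for each comparison, leaving 8 residual degrees of freedom. The SE uses the spread over all 12 arrays. The adjusted p (Benjamini-Hochberg) had to lie under 0.05. The number of arrays limits the precision.

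Members and lists were chosen with earlier results of these data known. The rule named members past the threshold, the smallest p per family and comparison, and members known from spermatogenesis. H1f2, H1f10, H2ap, H2bl1, H2bc22, H2bu2, H3c1, H3c15, H4c1, H4c8, Hmgn2, Hmgn3, Cbx7, Chd1, Smarcd1 and the genes without a test were added after their values were seen. Cell type lists covered late spermatid, meiotic, spermatogonial, Sertoli, Leydig, macrophage, blood and epididymis markers. Alternatives varied the filter, array centring and scaling, array weights, the dye term, the loop model, the reading of the ratio and the arrays included.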

Additional observations from a re-analysis of the deposited data

Results flagged for a closer look

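In 8 of 99 sets of 4 arrays examined for the named genes, 1 array stood far from the other 3, where chance gives about 1 in 20. Of these, 3 lay on replicate 2 of Wobbler over wildtype, the widest array. There Hdac1 had a log2 ratio of 4.35 (others -0.80 to -0.04), H1f8 4.03 (others -0.12 to 0.14) and Cbx5 1.09 (others -0.03 to 0.14). In modifier over wildtype, Hdac1 had 0.15 on replicate 1 (others 0.33 to 0.37), Hdac2 -1.46 on replicate 1 (others -0.12 to 0.15) and Kmt5a -0.33 on replicate 3 (others 0.23 to 0.25). In modifier over Wobbler, Brdt had -1.73 on replicate 4 (others -0.25 to -0.13) and Chd3 1.44 on replicate 3 (others -0.97 to -0.74). None of these values belongs to a gene that passed the adjusted threshold.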

How the results depend on the processing

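H1f6 in Wobbler over wildtype stayed past the threshold when any 1 of the 12 arrays was left out (-1.30 to -0.99). It was not past it with the 4 arrays of the comparison alone (-1.14, members called 0) or with 2 genotype coefficients for the loop (-0.81, members called 0), and it reversed under the reading as channel 1 over channel 2 (0.07, members called 0). The 4 arrays alone and the 2 loop coefficients called 0 of all features in Wobbler over wildtype. The channel reading called 0 features in every comparison and moved the median of all features to 0.17, 0.15 and 0.12. There H1f7 in modifier over wildtype reversed to 0.26. The number of members called in modifier over wildtype, 1 as reported, was 4 with arrays scaled to equal spread, 0 without the dye term, 0 with its 4 arrays alone, 6 with array weights, 3 with 2 loop coefficients, 0 under the channel reading, 2 with 1 probe per gene, and 0 to 1 with an array left out. Over all features, 108 were called there as reported, and 483, 46, 4, 709, 224, 0 and 136 with these alternatives in that order. With an array left out, 20 to 154 features were called there. In modifier over Wobbler the number of members called was 0 as reported. It was 1 with centred arrays, 1 with scaled arrays and 1 with values on all 12 arrays, each time Hmgb4. It was 2 with 2 loop coefficients (H1f7 and Hmgb4) and 2 with 1 probe per gene (H4c1 and Hmgb4). With an array left out it was 0 to 1 (Hmgb4, without replicate 2 of Wobbler over wildtype or replicate 3 of modifier over wildtype). Of all features, 61 were called there as reported, 89 with centred arrays, 73 with scaled arrays and 88 with values on all 12. With 2 loop coefficients 207 were called, with 1 probe per gene 89, and with an array left out 0 to 128. Among the other named genes and comparisons, 2436 values kept their side of the threshold and, if called, their direction, 16 passed it newly, 7 no longer passed and 1 reversed. The cause was not tested.

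Whether replicate numbers pair the arrays could not be told from the values. The deviations of same-numbered arrays correlated at -0.03 to 0.07. In 10 of 24 cases an array correlated best with its own number in another comparison. Same-numbered arrays also shared their dye order, so a pairing and a dye effect cannot be told apart in these correlations. A fit with the replicate block in place of the dye term called 1, 1 and 0 members in Wobbler over wildtype, modifier over wildtype and modifier over Wobbler, with H1f6 at -1.14 in the first. Over all features it called 22, 58 and 24, where 45, 108 and 61 were called as reported.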

Other observations

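The arrays differed in how widely the 70 tested chromatin genes spread. Over the arrays of a comparison their SD ranged between 0.66 and 1.16 in Wobbler over wildtype, 0.42 and 0.70 in modifier over wildtype, and 0.49 and 0.85 in modifier over Wobbler. The SD of a single gene over its 4 arrays had a median of 0.28, 0.37 and 0.42 in modifier over wildtype, modifier over Wobbler and Wobbler over wildtype, where all features had 0.30, 0.40 and 0.49. The members lay on many chromosomes, with 8 on chromosome 13, 8 on chromosome 11 and 5 on chromosome X.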
